A study of Mus musculus with 8 samples.

Results

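The immunity-related GTPases (IRGs) were followed through primary mouse astrocytes that were stimulated with TNF-α after knockdown of GSTM1, an enzyme that conjugates glutathione. The 9 genes described here, Irgm1, Irgm2, Igtp, Iigp1, Tgtp1, Tgtp2, Ifi47, 9930111J21Rik1 and 9930111J21Rik2, were taken by their symbols from the 54146 genes listed for every library. All 9 passed the filter on low counts in each comparison, also in the 4 basal libraries alone. The family was chosen by the responses of Irgm2 and 9930111J21Rik2, which TNF-α had been seen to induce more in GSTM1 KD than in control KD. Their values in that contrast, the log2 response in GSTM1 KD minus the log2 response in control KD, were 2.31 (SE 0.37) for Irgm2 and 2.27 (SE 0.43) for 9930111J21Rik2. These values chose the genes and are given with no test. No gene was therefore tested in that contrast, and Irgm2 and 9930111J21Rik2 were not tested within a state or a knockdown.

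The cells were astrocytes from the cortices of C57BL/6 pups at postnatal days 2 to 5, infected as mixed glia with a pLKO-puro lentivirus and selected with puromycin. The lentivirus encoded a short hairpin RNA against Gstm1 (GSTM1 KD) or a non-silencing one (control KD), so all groups had been infected, selected and depleted of CD11b-positive microglia. RNA was sequenced from unstimulated cells and from cells given 50 ng/ml TNF-α for 6 h. Each of the 4 groups had 2 biological replicates. The labels do not say how many hairpin sequences were used or whether replicates came from separate litters, so the p-values measure the spread between these libraries only.

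IRGs are GTP-binding proteins that mouse cells make in quantity after exposure to interferons. The effector proteins, which carry the usual GKS sequence in their GTP-binding loop, load onto the vacuoles of intracellular parasites and bacteria and break them. The regulatory proteins Irgm1, Irgm2 and Irgm3 (the product of Igtp) carry GMS in its place, sit on the cell's own membranes and keep the effectors inactive there. Irgm1 is also known for its part in autophagy and mitochondrial quality control, and Irgm2 for its place at the Golgi. In astrocytes, IRGs are among the genes by which interferon limits Toxoplasma. TNF-α on its own signals mainly through NF-κB, and can reach interferon-responsive genes through IRF1 and through interferon β that the cells release.

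Of the 9 genes, 8 lie on chromosome 11 of the GRCm38 assembly (GENCODE annotation M21), in 2 groups. Irgm1 (chr11:48861968-48871683), 9930111J21Rik1 (chr11:48946150-48979398), Tgtp1 (chr11:48985327-48994172), 9930111J21Rik2 (chr11:49015874-49051242) and Tgtp2 (chr11:49057194-49064206) were annotated on the minus strand, and Ifi47 (chr11:49076587-49096974) beside them on the plus strand. Igtp (chr11:58199556-58207591) and Irgm2 (chr11:58199618-58222782) lie together farther along, on the plus strand, and their exons share 162 bases. Exons of Tgtp1 share 223 bases with those of the IRG gene Gm12185 on the same strand. Tgtp1 and Tgtp2 are near-identical copies: 83.3% of the 100-base windows along the longest Tgtp1 transcript also occurred in another gene, and 80% occurred in Tgtp2. For 9930111J21Rik1 the share was 64.6%, mostly with 9930111J21Rik2, and for 9930111J21Rik2 it was 40.3%. It was 5.67% for Igtp, 2.48% for Irgm2, 0.836% for Ifi47 and 0 for Irgm1 and Iigp1. The counting divides reads that match several genes, so the single values of Tgtp1, Tgtp2 and the 9930111J21Rik pair are uncertain, and both pairs are also given as sums.

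The promoters are shown because the known interferon elements sit in nearly the same arrangement in several of these genes. RefSeq promoter windows (GRCm38.p6, 250 bases before the annotated start to 50 after it) were found for 8 of the 9 genes, Iigp1 being the exception. The starts are those of RefSeq, and for Irgm2, Tgtp1, Irgm1 and 9930111J21Rik1 they lie inside the GENCODE spans given above. They were searched on both strands for an interferon-stimulated response element core (ISRE, GAAANNGAAA), which interferon regulatory factors bind, for a gamma-activated sequence (GAS, TTCNNNGAA), known from promoters that interferon-γ induces, and for a κB form (GGGNNNTTCC). The ISRE core was present in 6 of the 8 windows, against 3.44% of all 32851 windows of that length. The GAS was present in 4, against 8.3% of all windows, and the κB form in none, against 5.56%. In Irgm2, Igtp, Tgtp1 and Tgtp2 the GAS stood 2 bases before the ISRE core. Stretches around the matches are printed 5′ to 3′ on the gene's strand, with the matched bases in capitals.
Irgm2 (chr11:58214882-58214942): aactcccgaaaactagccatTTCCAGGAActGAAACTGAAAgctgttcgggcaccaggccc
Igtp (chr11:58199491-58199551): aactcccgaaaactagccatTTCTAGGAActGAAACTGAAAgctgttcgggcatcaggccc
Tgtp1 (chr11:48992294-48992354): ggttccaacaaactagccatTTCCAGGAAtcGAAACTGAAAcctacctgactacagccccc
Tgtp2 (chr11:49064253-49064313): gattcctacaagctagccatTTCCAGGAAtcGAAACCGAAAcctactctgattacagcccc
Irgm1 (chr11:48871415-48871470): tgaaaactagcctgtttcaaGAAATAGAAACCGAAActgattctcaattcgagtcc
9930111J21Rik1 (chr11:48979332-48979375): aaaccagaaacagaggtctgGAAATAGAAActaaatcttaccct
Irgm2 and Igtp were identical at 59 of these 61 bases, Tgtp1 and Tgtp2 at 47, and Irgm2 and Tgtp1 at 41. The ISRE core ended 55 bases before the start in Irgm2, 25 in Igtp, 68 in Tgtp1 and 61 in Tgtp2. Irgm1 held 2 overlapping ISRE cores, the nearer ending 15 bases before the start, and 9930111J21Rik1 held its core after the start. The windows of Ifi47 and 9930111J21Rik2 held none of the 3 forms as written here. A match is a description of the letters in the window, and no binding was measured.

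The targeted gene was low in every library labelled GSTM1 KD. Its counts there were 676 and 626 unstimulated and 527 and 405 stimulated, whereas control KD held 8153 and 9644 Gstm1 counts unstimulated and 4851 and 6492 stimulated. The libraries held 17349676 to 34434633 expected counts, the estimated fragments per gene summed over genes, and 3 counts in the deepest and the shallowest library are worth 0.0848 and 0.181 CPM (counts scaled to a common library size). This floor covers counting error only. The 10 astrocyte markers, Gfap, Aqp4 and Slc1a3 among them, summed to 1608 to 3870 TPM (abundance scaled for transcript length) in control KD and to 3557 to 5807 TPM in GSTM1 KD. After TNF-α 0 of the 10 were called higher and 1 lower in GSTM1 KD (S100b), and the median of their log2 fold changes was 0.28. In the stimulated libraries the 9 oligodendrocyte lineage markers summed to 448 to 479 TPM in control KD and 340 to 352 TPM in GSTM1 KD, the 8 endothelial markers to 6.89 to 8.27 and 4.12 to 5.4 TPM, the 8 pericyte and fibroblast markers to 83.8 to 122 and 60.9 to 95.2 TPM, and the 7 neuron markers to 185 to 188 and 211 to 219 TPM. Of 5 pericyte and fibroblast markers tested after TNF-α, 1 was higher (Pdgfrb) and 1 lower (Col1a2) in GSTM1 KD, with a median log2 fold change of 0.35. Of 6 oligodendrocyte lineage markers tested, 0 were higher and 2 lower (Olig1 and Olig2), with a median of -0.47. None of the 3 endothelial and 4 neuron markers tested was called. Of all genes 7.26% were higher and 8.92% lower. The part of these cell types in the results was not tested. The 7 T cell and NK cell markers summed to 0 to 0.37 TPM, with Cd3e, Cd3g and Ncr1 at 0. The 13 microglia and macrophage markers summed to 10.4 to 22.7 TPM in unstimulated control KD and 8.64 to 13.4 TPM in unstimulated GSTM1 KD, then to 10.8 to 20.5 TPM and 7.38 to 12.9 TPM after TNF-α. The groups overlapped in this sum in both states. In GSTM1 KD the median log2 fold change of these markers was -0.90 at the basal level (0 of 6 called) and -0.68 after TNF-α (0 of 5 called). Averaged over both states it was -1.13, with 2 of 9 called lower, beside 19.6% of all genes. These 2, Trem2 and Itgam, had 0 to 8 counts in the GSTM1 KD libraries. They passed the filter through control KD, where they were high, so no result is drawn from their calls or from the median of -1.13. The part of microglia in the results was not tested. In these bulk samples a change in the number of cells that express a gene and a change in its RNA per cell cannot be told apart.

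The 3 regulatory genes were the most abundant of the 9 before stimulation, in TPM as in CPM. Irgm1 stood at 37.5 and 40.6 CPM in the unstimulated control KD libraries and 37.7 and 31.5 CPM in those of GSTM1 KD, and after TNF-α at 117 and 128 CPM (control KD) and 444 and 248 CPM (GSTM1 KD). Irgm2 stood at 17.2 and 19.3 CPM (control KD) and 11.7 and 10.7 CPM (GSTM1 KD), and after TNF-α at 57.9 and 73.9 CPM and at 256 and 146 CPM. For Igtp the basal values were 23 and 25 CPM (control KD) and 23.9 and 19.7 CPM (GSTM1 KD), and the stimulated ones 55 and 70.9 CPM and 225 and 122 CPM. In each of the 3 genes the basal libraries were lowest, the stimulated control KD libraries intermediate and the stimulated GSTM1 KD libraries highest, with no overlap between these 3 levels. The 2 basal groups overlapped for Irgm1 and Igtp and did not for Irgm2, which was lower in GSTM1 KD. How many of all genes stood apart in such ways was not counted, so the orders of libraries here and below are descriptions only.

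Among the effector genes, Iigp1 (Irga6, the best-studied IRG, which coats the Toxoplasma vacuole) had the highest level per transcript length in GSTM1 KD after stimulation. It lies on another chromosome (chr18:60376027-60392634, plus strand). Its basal values were 4.52 and 3.83 CPM (control KD) and 6.44 and 4.31 CPM (GSTM1 KD), and after TNF-α 31.9 and 33.5 CPM against 261 and 120 CPM. Tgtp1 and Tgtp2 encode Irgb6, which also acts at the vacuole. Tgtp1 went from 1.16 and 0.939 CPM (control KD) and 2.1 and 1.3 CPM (GSTM1 KD) to 9.69 and 13.4 CPM and to 83.1 and 41.7 CPM. Tgtp2 went from 0.82 and 1.37 CPM and 1.24 and 1.55 CPM to 5.94 and 16.1 CPM and to 71.5 and 38.2 CPM. The stimulated GSTM1 KD libraries were again highest, and each was above both stimulated control KD libraries. Tgtp1 took 40% to 62.4% of the counts of the pair across libraries, and the pair summed to 1.98 and 2.31 CPM, 3.35 and 2.86 CPM, 15.6 and 29.5 CPM, and 155 and 79.8 CPM in the same order of groups.

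Ifi47 (Irgd) stood at 1.58 and 2.54 CPM (control KD) and 1.2 and 1.5 CPM (GSTM1 KD) before stimulation, and at 13.8 and 19.4 CPM and 66.7 and 37.4 CPM after TNF-α. The 2 remaining genes, tandem IRG genes whose roles are less studied, had the lowest TPM values of the 9 after stimulation. 9930111J21Rik2 was measured at 2.6 and 2.5 CPM (control KD) and 1.29 and 1.9 CPM (GSTM1 KD), and after TNF-α at 6.85 and 8.06 CPM and at 27.8 and 16.6 CPM. 9930111J21Rik1 was at 0.594 and 0.547 CPM and 0.215 and 0.551 CPM, then at 1.68 and 1.68 CPM and at 6.56 and 4.14 CPM. Both showed the order of the other genes, and 9930111J21Rik1 took 15.2% to 22.9% of the counts of its pair. The sum of 9930111J21Rik1 and 9930111J21Rik2 was 3.2 and 3.05 CPM, 1.5 and 2.45 CPM, 8.53 and 9.75 CPM, and 34.4 and 20.7 CPM in the same order of groups.

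**Figure D1:**
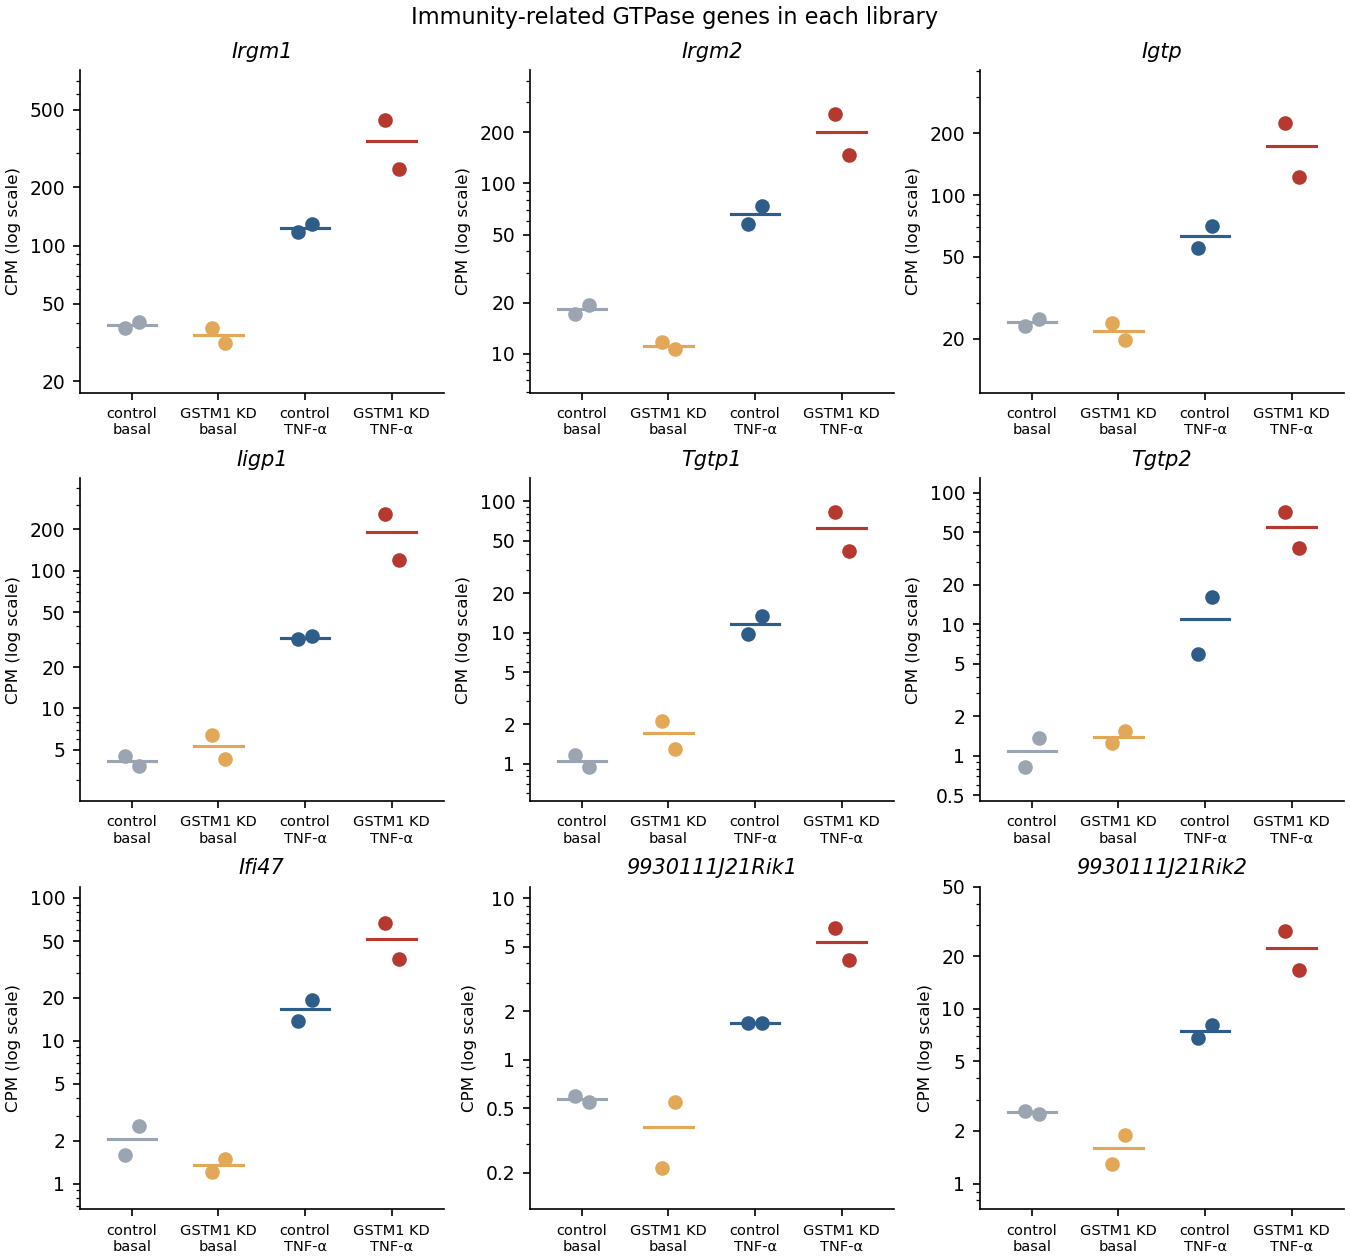
CPM (log scale) of the 9 immunity-related GTPase genes by knockdown and stimulation, with a point for each of the 2 libraries per group and a line at their mean. In every panel both stimulated GSTM1 KD libraries lie above both stimulated control KD libraries, which lie above all 4 basal libraries.

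Levels were compared between genes in TPM, which allows for transcript length. At the basal level in control KD the mean was 35 ± 2.6 TPM (SD, n = 2) for Irgm1, 23.3 ± 1.5 for Igtp and 9.64 ± 0.85 for Irgm2, whereas Iigp1 at 2.58 ± 0.28 and Ifi47 at 2.42 ± 0.81 led the effectors. After TNF-α in GSTM1 KD the order was Irgm1 at 316 ± 121 TPM, Igtp at 171 ± 70, Iigp1 at 119 ± 61 and Irgm2 at 108 ± 40, and the libraries of Igtp and Iigp1 overlapped, as did those of Iigp1 and Irgm2. The libraries of Irgm1 and Igtp did not overlap. The 3 regulatory genes together summed to 64.4 and 71.4 TPM (control KD) and 65.9 and 55.3 TPM (GSTM1 KD) before stimulation, and to 188 and 219 TPM and 758 and 431 TPM after TNF-α. The 6 other genes summed to 7.56 and 8.19 TPM, 8.5 and 8.02 TPM, 50.8 and 65 TPM, and 361 and 186 TPM. Their share of the family's TPM was thus 10.5% and 10.3% (control KD) and 11.4% and 12.7% (GSTM1 KD) before stimulation, 21.3% and 22.9% in control KD after TNF-α, and 32.3% and 30.1% in GSTM1 KD after TNF-α. The 4 groups did not overlap in this share, and the replicates of a group differed by less than the stimulated groups did. This share was not tested.

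**Figure D2:**
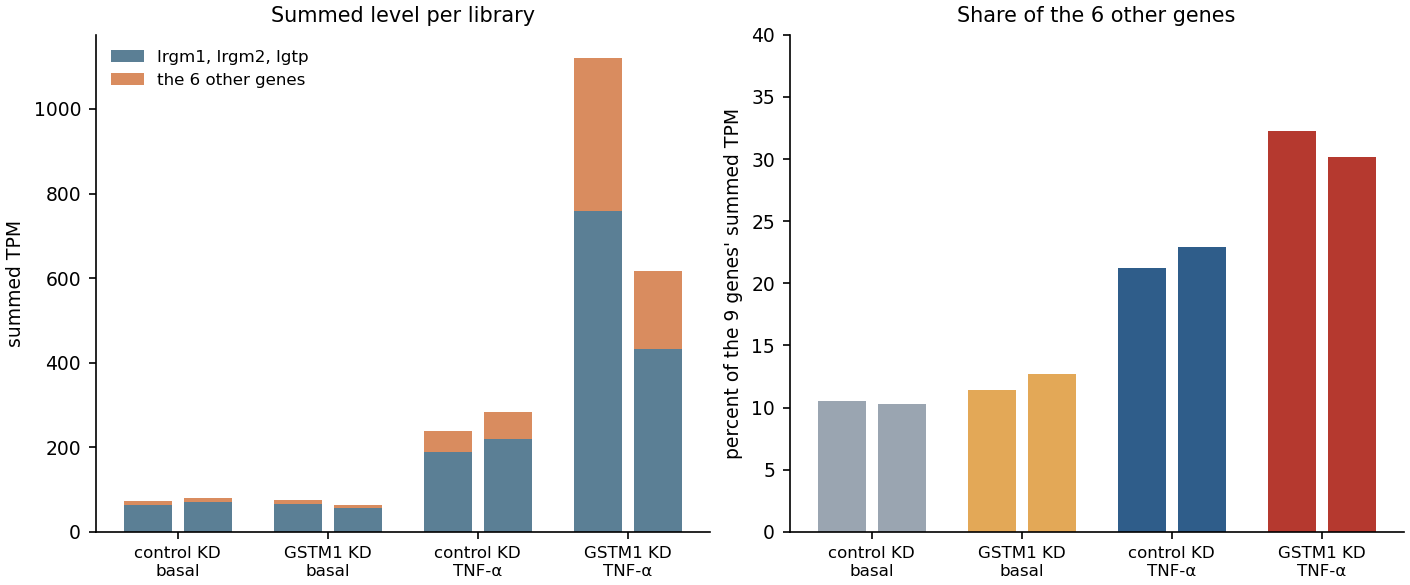
Left, summed TPM of the regulatory genes Irgm1, Irgm2 and Igtp and of the 6 other genes, with a bar for each library. Right, the 6 other genes' share of the summed TPM, in percent, with a bar for each library. The share lies between 10.3% and 12.7% in the basal libraries and at 30.1% and 32.3% in the stimulated GSTM1 KD libraries.

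The first comparison asked how the genes responded to TNF-α when both knockdowns were averaged. This average is a separate quantity from the difference between responses that led to the choice of genes, but both come from the same 8 libraries. Irgm2 and 9930111J21Rik2 were chosen as genes that TNF-α induced more in GSTM1 KD, so no support is drawn from their 2 calls. All 9 genes rose, beside 4.81% of all 15332 genes tested (edgeR's quasi-likelihood test, adjusted p from 0.000283 for Irgm2 to 0.00279 for 9930111J21Rik1). Apart from Irgm2 and 9930111J21Rik2 the smallest edgeR adjusted p was 0.000312, for Ifi47. The median log2 fold change of the 9 genes was 3.01 and that of all genes tested was -0.02. The regulatory genes rose by 2.19 (SE 0.20, Igtp), 2.49 (SE 0.19, Irgm1) and 3.01 (SE 0.19, Irgm2) on the log2 scale. Rises of the effectors Iigp1 (4.05, SE 0.28), Ifi47 (4.15, SE 0.27), Tgtp1 (4.31, SE 0.30) and Tgtp2 (4.32, SE 0.41) were larger on the log2 scale, 16.6-fold to 20-fold, and this difference from the regulatory genes was not tested. The values of 9930111J21Rik1 and 9930111J21Rik2 were 2.68 (SE 0.31) and 2.67 (SE 0.22), inside the range of the regulatory genes, so not all 6 other genes rose more than those. All 9 calls held whichever library was left out.

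The responses in the 2 knockdowns were then read one at a time, in one fit of all 8 libraries. In control KD, 5 of the 7 genes tested were induced, against 2.1% of all genes called higher. Ifi47 (log2 fold change 3.02, SE 0.37, edgeR adjusted p = 0.0084), Tgtp1 (3.43, SE 0.42, adjusted p = 0.00891), Iigp1 (2.96, SE 0.39, adjusted p = 0.0108), Irgm1 (1.65, SE 0.26, adjusted p = 0.02) and Tgtp2 (3.34, SE 0.58, adjusted p = 0.0312) passed. Igtp (1.39, SE 0.28, adjusted p = 0.0538) and 9930111J21Rik1 (1.55, SE 0.43, adjusted p = 0.145) did not. Irgm2 stood at 1.85 (SE 0.26) and 9930111J21Rik2 at 1.54 (SE 0.30), with no test. The count of 5 fell to 3 without either GSTM1 KD basal library, without control KD TNF-α replicate 2, without control KD basal replicate 1 or with only the 4 control KD libraries, and to 1 without control KD basal replicate 2. It was 4 without control KD TNF-α replicate 1. By DESeq2, with library size alone and without either GSTM1 KD TNF-α library it was 6. With replicate number as a block it was also 6, and Igtp passed. With the copies summed, which counts 9930111J21Rik1 together with the untested 9930111J21Rik2, the count was 6 too. With no filter on low counts it was 7. Without control KD TNF-α replicate 2 the value of Tgtp2 was 2.49 (edgeR adjusted p = 0.0779).

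In GSTM1 KD all 7 genes tested rose, against 2.35% of all genes called higher. Their log2 fold changes were 2.99 (SE 0.29, edgeR adjusted p = 0.0031) for Igtp, 3.32 (SE 0.27, adjusted p = 0.00162) for Irgm1, 3.82 (SE 0.45, adjusted p = 0.00604) for 9930111J21Rik1, 5.14 (SE 0.41, adjusted p = 0.00156) for Iigp1, 5.18 (SE 0.42, adjusted p = 0.00162) for Tgtp1, 5.27 (SE 0.41, adjusted p = 0.00136) for Ifi47 and 5.30 (SE 0.59, adjusted p = 0.00499) for Tgtp2. Ifi47 thus reached 38.6 times and Irgm1 9.99 times its basal level. Irgm2 stood at 4.17 (SE 0.29) and 9930111J21Rik2 at 3.81 (SE 0.32), with no test. Without either GSTM1 KD basal library 5 of the 7 passed. The value of Iigp1 was 4.47 without GSTM1 KD TNF-α replicate 1, and that of 9930111J21Rik1 was 4.61 without GSTM1 KD basal replicate 2. The response in GSTM1 KD minus that in control KD was positive for all 9 genes and ran from 1.60 (SE 0.39, Igtp) to 2.31 (SE 0.37, Irgm2), with a median of 2.18 beside 0.02 over all genes. This is the contrast that led to the choice of genes and is a description only. The comparisons within a knockdown and within a state share libraries with each other, and their values are set side by side for that reason.

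**Figure D3:**
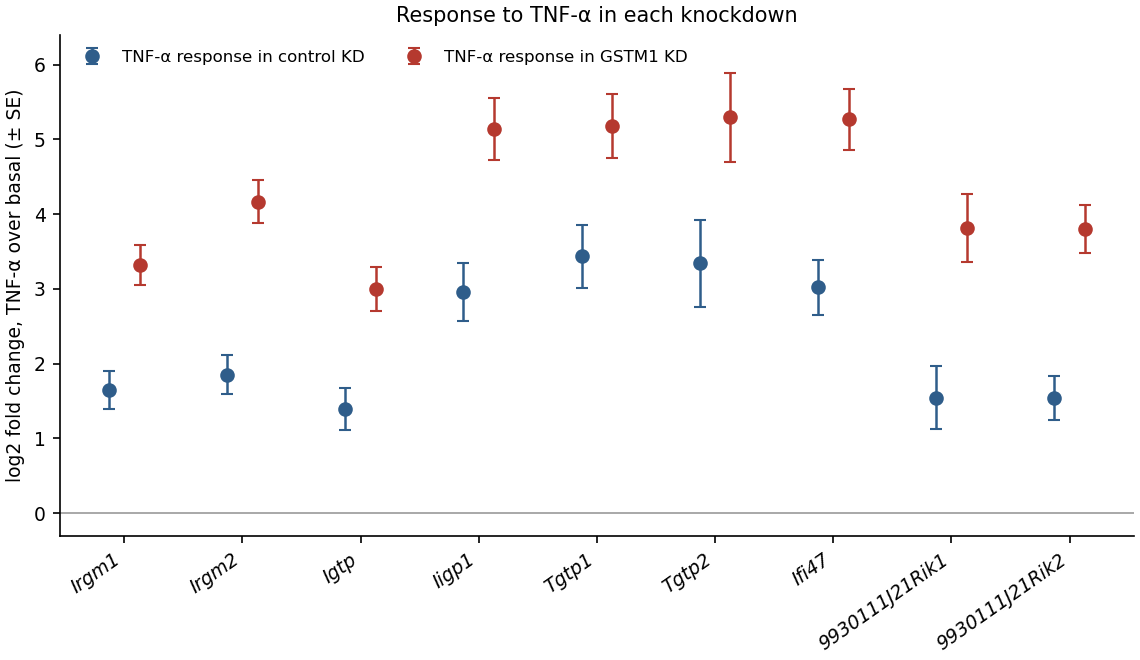
Log2 fold change of TNF-α over basal for each gene in control KD and in GSTM1 KD, with the standard error from the edgeR fit of all 8 libraries. In each gene the GSTM1 KD response lies above the control KD response, by 1.60 for Igtp to 2.31 for Irgm2.

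At the basal level the comparison of GSTM1 KD with control KD asked whether the family already differed before stimulation. None of the 7 genes tested passed, beside 10.2% of all 14899 genes tested, called in either direction (edgeR, adjusted p from 0.269 for Tgtp1 to 0.568 for Igtp). At an unadjusted p under 0.05 the count was also 0, beside 4712 of all 14899 genes. DESeq2 called 0 of the 7, beside 2494 of 13487 genes in all. Log2 fold changes were -0.17 (SE 0.14) for Irgm1, -0.14 (SE 0.15) for Igtp, 0.36 (SE 0.28) for Iigp1, 0.70 (SE 0.38) for Tgtp1, 0.36 (SE 0.40) for Tgtp2, -0.60 (SE 0.38) for Ifi47 and -0.60 (SE 0.54) for 9930111J21Rik1. Irgm2 was at -0.70 (SE 0.16) and 9930111J21Rik2 at -0.68 (SE 0.33), with no test. The median of the 9 was -0.17 and that of all genes 0.00. In CPM, Irgm2, Ifi47 and 9930111J21Rik2 were lower in both GSTM1 KD libraries than in both control KD libraries, Tgtp1 was higher in both, and the groups of the other 5 genes overlapped. The share of all genes whose basal groups stood apart was not counted, and no result is drawn from this split. 9930111J21Rik1 had only 5.44 and 11.2 expected counts in the GSTM1 KD libraries, so its value is the least precise.

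After TNF-α all 7 genes tested were higher in GSTM1 KD than in control KD, beside 7.26% of all 14593 genes tested. Iigp1 differed most, by 2.52 on the log2 scale (SE 0.37, edgeR adjusted p = 0.0177), and stood 5.74-fold higher. Tgtp1 (2.42, SE 0.37, adjusted p = 0.0185) and Tgtp2 (2.32, SE 0.52, adjusted p = 0.0401) followed, and the sum of the pair gave 2.37 (SE 0.42, adjusted p = 0.0246). Changes were smaller in 9930111J21Rik1 (1.65, SE 0.34, adjusted p = 0.0335), Ifi47 (1.63, SE 0.32, adjusted p = 0.0293), Irgm1 (1.47, SE 0.28, adjusted p = 0.0279) and Igtp (1.44, SE 0.30, adjusted p = 0.0351). Irgm2 stood at 1.59 (SE 0.29) and 9930111J21Rik2 at 1.56 (SE 0.28), with no test. The median of the 9 was 1.63, that of all genes was -0.01, and in all 9 genes both GSTM1 KD libraries lay above both control KD libraries. The share of all genes with that order of libraries was not counted.

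Those calls depended on both GSTM1 KD TNF-α libraries, and most on replicate 1. Without it, the lone GSTM1 KD library being assumed to vary like the control KD pair, edgeR called 0 of the 7 genes and 0 of 14822 genes in all, while all 7 had an unadjusted p under 0.05, as did 3273 of all genes. The log2 fold changes were then positive in all 9 genes, with a median of 1.16 and a range of 0.94 to 1.86, the highest being that of Iigp1. Without control KD TNF-α replicate 2 the value of Tgtp2 was 3.19. Without GSTM1 KD TNF-α replicate 2, 5 of the 7 genes passed, beside 94 of 15253 genes in all, and the median was 1.94.

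Averaged over the basal and the stimulated state, 5 of the 9 genes were higher in GSTM1 KD, against 20.1% of all genes called higher. The 5 were Tgtp1 (log2 fold change 1.57, SE 0.30, edgeR adjusted p = 0.00688), Iigp1 (1.45, SE 0.27, adjusted p = 0.00599), Tgtp2 (1.36, SE 0.42, adjusted p = 0.038), Igtp (0.66, SE 0.20, adjusted p = 0.0329) and Irgm1 (0.66, SE 0.18, adjusted p = 0.0236). Irgm2 (0.46, SE 0.18, adjusted p = 0.0871), 9930111J21Rik2 (0.45, SE 0.21, adjusted p = 0.138), Ifi47 (0.53, SE 0.27, adjusted p = 0.16) and 9930111J21Rik1 (0.53, SE 0.32, adjusted p = 0.221) did not pass. The median of the 9 genes was 0.66 and that of all genes 0.01. The count fell to 2 without either GSTM1 KD basal library or without control KD basal replicate 1, and to 3 without GSTM1 KD TNF-α replicate 1 or control KD TNF-α replicate 1.

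Of the 4 pairs of replicates, the stimulated GSTM1 KD libraries had the largest median difference in these genes. Replicate 1 stood 1.59-fold (9930111J21Rik1) to 2.18-fold (Iigp1) above replicate 2 in all 9 genes, with a median log2 difference of 0.84 beside 0.00 over all genes. In control KD after TNF-α replicate 1 was lower than replicate 2 in all 9, with a median of -0.35, and the medians of the basal pairs were -0.11 in control KD and 0.13 in GSTM1 KD. All 25 genes of a type I interferon response list were also higher in GSTM1 KD TNF-α replicate 1, with a median log2 difference of 0.90. All 9 guanylate-binding protein genes tested were higher too, by a median of 0.51. The 17 TNF and NF-κB target genes tested differed between the same libraries by a median of 0.02. Lists in this paragraph hold all genes tested, also those that did not pass the filter in the basal libraries alone. Of 9 microglia and macrophage markers 8 were higher in replicate 1, by a median of 0.91. The same markers were higher by a median of 0.95 in replicate 1 of unstimulated GSTM1 KD, and by 2.04 and 2.30 in replicate 1 of unstimulated and stimulated control KD. Astrocyte markers were mostly lower in replicate 1, with 2 of 10 higher and a median of -0.17 in stimulated GSTM1 KD. Their medians were -0.21 in unstimulated GSTM1 KD, and -0.86 and -0.87 in unstimulated and stimulated control KD. The part of either list of markers in the difference between replicates was not tested.

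Other members of the family outside the 9 were read from a list. Of its 9 names 7 had enough counts to be tested, but Gm12250, Gm4841, Gm12185 and Gm5431 passed the filter only through stimulated libraries, so their counts are given with no tally of calls. Gm4951 had 44 and 48 counts (control KD) and 53 and 38 counts (GSTM1 KD) before stimulation, and 262 and 164 against 1500 and 604 after TNF-α. Gm4841 had 2 to 6 counts in every basal library, 112 and 47 in stimulated control KD and 441 and 216 in stimulated GSTM1 KD. The tandem gene Gm12185, listed as RP23-14F5.7, had 1 or 2 counts in every basal library, 13 and 21 in stimulated control KD and 223 and 80 in stimulated GSTM1 KD. All 3 were therefore highest in the libraries in which the 9 genes were highest.

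Gm12250, which encodes the effector Irgb10, had 2 to 6 counts in the basal libraries, 32 and 29 in stimulated control KD and 267 and 98 in stimulated GSTM1 KD. F830016B08Rik had 8 to 12 counts at the basal level, then 40 and 29 against 329 and 131. Gm5431, which shares sequence with both 9930111J21Rik genes, had 4 and 3 counts in stimulated control KD and 59 and 25 in stimulated GSTM1 KD. Irgq, an IRG relative, did not pass for TNF-α (log2 fold change 0.26, SE 0.09, edgeR adjusted p = 0.166) and was higher in GSTM1 KD both at the basal level (0.99, SE 0.13, adjusted p = 0.0194) and after TNF-α (0.70, SE 0.12, adjusted p = 0.0228). Irgc1, a testis gene, had 0 counts in all 8 libraries.

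The interferon pathway genes were read beside the family. The counts of called genes in each list stand against 4.81% of all genes called higher with TNF-α averaged over the knockdowns, and 7.26% called higher and 8.92% called lower in GSTM1 KD after TNF-α. Counts and medians of the lists are taken over genes that passed the filter in the 4 basal libraries alone, since a gene that passed only through stimulated libraries had to rise. Ifng, the ligand best known to induce IRGs, had 0 counts in all 8 libraries. Ifnb1 had 0 counts at the basal level, 7 and 1 in stimulated control KD and 25 and 9 in stimulated GSTM1 KD. Ifnb1 passed the filter only through stimulated libraries, so its counts are given with no test. Of 16 signalling genes, 14 rose with TNF-α averaged over the knockdowns, and after TNF-α 5 were higher and 3 lower in GSTM1 KD (median log2 fold change 0.11). Irf9 (1.07, SE 0.16, edgeR adjusted p = 0.0178) and Stat2 (1.22, SE 0.28, adjusted p = 0.0413), which act in the type I interferon response, were among the 5. The receptor subunit gene Ifnar1 (-0.49, SE 0.09, adjusted p = 0.0265) was among the 3. So was Irf8, with 23 and 14 counts in stimulated control KD and 4 and 3 in stimulated GSTM1 KD. Irf8 passed the filter through control KD, where it was high, so no result is drawn from its call. Irf1, an activator of IRG promoters, rose with TNF-α by 3.17 (SE 0.10, adjusted p = 2.14e-05) and stood at 169 and 190 CPM in stimulated control KD and 211 and 177 CPM in stimulated GSTM1 KD (difference 0.09, SE 0.13, adjusted p = 0.656). The interferon-γ receptor genes did not pass either in that comparison, at 0.31 (SE 0.10, adjusted p = 0.0928) for Ifngr1 and -0.40 (SE 0.10, adjusted p = 0.0543) for Ifngr2.

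All 21 type I interferon response genes rose with TNF-α, and 13 of them were higher in GSTM1 KD after TNF-α (median log2 fold change 1.33), beside 4.81% and 7.26% of all genes. Among those with the smallest p were Ddx58 (1.35, SE 0.19, edgeR adjusted p = 0.017), an RNA sensor, and Rsad2 (2.30, SE 0.41, adjusted p = 0.0252), which encodes viperin. Guanylate-binding proteins, large GTPases that act with IRGs at pathogen vacuoles, rose with TNF-α in 8 of 8 genes, in control KD and in GSTM1 KD alike. Of these 8, 3 were higher in GSTM1 KD after TNF-α (median 0.75), with Gbp3 at 1.10 (SE 0.23, adjusted p = 0.0335) and Gbp10 at 1.52 (SE 0.34, adjusted p = 0.0412). Of 9 interferon-γ linked genes 8 rose with TNF-α and 2 were higher in GSTM1 KD after it (median 0.61), the antigen presentation genes H2-Ab1 (1.98, SE 0.34, adjusted p = 0.0242) and Tap1 (0.82, SE 0.20, adjusted p = 0.0456).

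Autophagy and vacuole ubiquitin genes, whose products help IRGs to reach the right membrane, were mostly not called. Of 14 tested, Trim21 and Sqstm1 rose with TNF-α, and after TNF-α Trim21 was higher (1.03, SE 0.24, edgeR adjusted p = 0.0431) and Ubqln2 lower (-0.55, SE 0.10, adjusted p = 0.0244) in GSTM1 KD, with a list median of 0.01. These shares are near the 7.26% higher and 8.92% lower of all genes. Of 16 TNF and NF-κB targets, 14 rose with TNF-α averaged over the knockdowns, yet after TNF-α 0 were higher and 7 lower in GSTM1 KD (median -0.62), beside 8.92% of all genes called lower. Among the 7 were Cxcl2 (-2.93, SE 0.29, edgeR adjusted p = 0.0106), Birc3 (-1.01, SE 0.12, adjusted p = 0.0129) and Icam1 (-1.22, SE 0.16, adjusted p = 0.0152). No test compared the lists with each other, and without GSTM1 KD TNF-α replicate 1, where 0 of all genes passed, the calls of every list after TNF-α were lost.

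**Figure D4:**
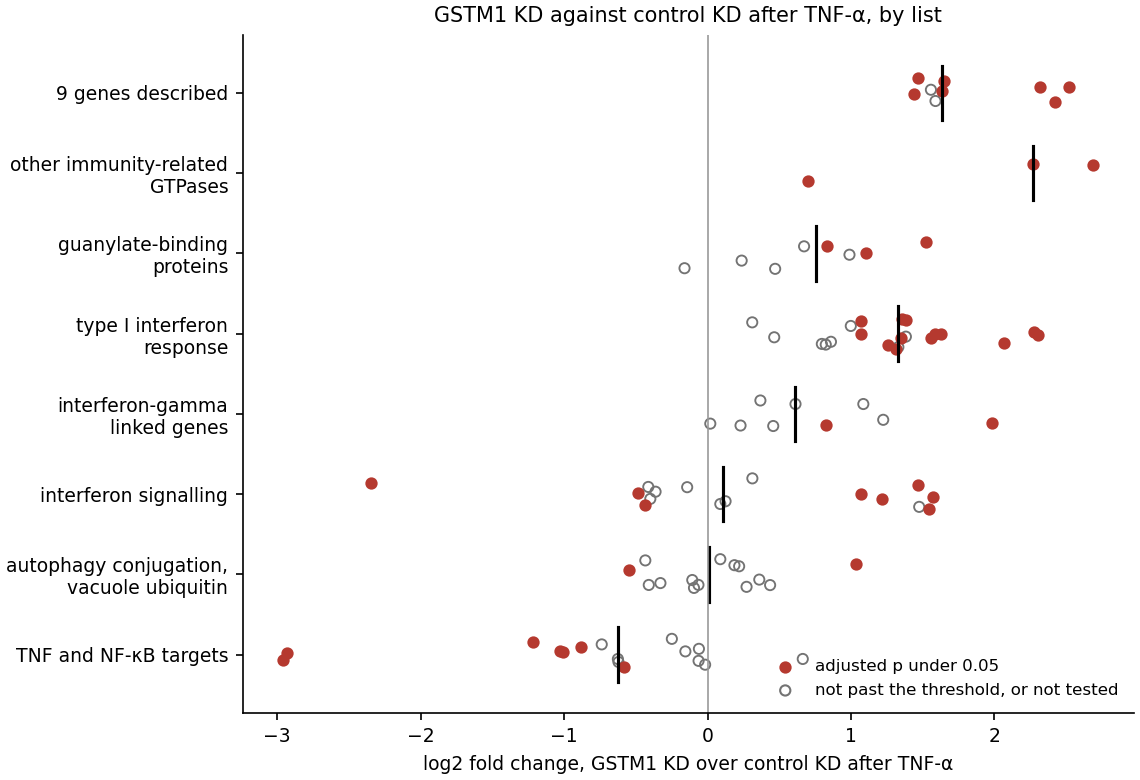
Log2 fold change of GSTM1 KD over control KD after TNF-α for each gene that passed the filter in the basal libraries alone, by list, with filled points for an edgeR adjusted p under 0.05, open points for the others (and for Irgm2 and 9930111J21Rik2, which were not tested), and a line at the list's median. The 9 IRG genes have a median of 1.63, the guanylate-binding proteins 0.75 and the TNF and NF-κB targets -0.62.

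The 9 genes followed one another closely over the 8 libraries. The Pearson correlation of log2 CPM between any 2 of them ran from 0.935 to 0.998, as a description over libraries that share the same 4 groups. Of the 15332 genes tested, 106 outside the 9 had a correlation of 0.95 or more with their mean profile. The 10 closest were Gm12185 (r = 0.995, sharing exonic bases with Tgtp1), Helz2, Cd74, Trim21, Parp9, Rnf213, Rsad2, Tnfsf10, Cxcl9 and Tap1 (r = 0.992). The nearest to Irgm2 alone were Ifit1 (r = 0.995), Slfn8, Tnfsf10, Stat2 and Helz2, and the nearest to Irgm1 alone were Tnfsf10 (r = 0.996), Helz2, Trim21, Rnf213 and Isg15.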

How the data were processed

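RNA-seq was analysed from 8 libraries of primary mouse astrocytes, 2 per group, made by the authors with a strand-specific kit and 100-base paired-end reads. Per the labels, the authors aligned reads to GRCm38 with STAR (version 2.5.4b) and estimated abundance by RSEM (version 1.3.0). Expected counts, as deposited, are unnormalized estimates of fragments per gene, with reads that match several genes divided among them. The deposited TPM values, scaled per transcript length, were used for levels between genes only. The deposited effective lengths, in bases, entered 1 alternative. Whether counting used strand is not given in the sources used here, so Ifi47, which overlaps 106 exonic bases of an antisense gene, is uncertain.

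After rounding to whole numbers, 17349676 to 34434633 counts per library were tested with edgeR (version 4.0.16, R version 4.3.3): TMM factors, filterByExpr by group, quasi-likelihood F-test, Benjamini-Hochberg adjustment over all genes tested, threshold 0.05. Comparisons within a state used its 4 libraries and the others all 8. CPM used library size times TMM factor. SEs are the log2 fold change over the root of the F statistic. A floor of 3 counts was used. The fits were tested on simulated data. DESeq2 (version 1.42.0) was an alternative. Others were its size factors, library size alone, other filters, effective lengths, summed copies, a replicate block, other libraries in the fit, and leaving out each library. Sequences and motif shares came from RefSeq promoter windows and GENCODE M21 transcripts. Protein sequences were not used here.

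The genes, the lists and the tests were chosen with earlier results of these data known. Named besides the 9 genes are Gstm1, the other IRG genes with a count, fixed interferon pathway genes, in each list up to 4 genes with the smallest p past the threshold, and the 10 or 5 genes with the highest correlation. Some single genes of the lists are not reported here. List genes were matched by symbol or, for Gm12185 and others, by Ensembl identifier. Analyses used Python (version 3.11.15), and figures were drawn with matplotlib (version 3.10.9).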

Additional observations from a re-analysis of the deposited data

Results flagged for a closer look

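For 3 genes the knockdown groups stood apart in opposite directions in the 2 states, with no overlap of libraries in either. Irgm2, Ifi47 and 9930111J21Rik2 were lower in both GSTM1 KD libraries than in both control KD libraries before stimulation, and higher in both after TNF-α. The difference between the states, which equals the response in GSTM1 KD minus the response in control KD on the log2 scale, was 2.31 for Irgm2, 2.25 for Ifi47 and 2.27 for 9930111J21Rik2. That difference was not tested, because it is the contrast by which Irgm2 and 9930111J21Rik2 were chosen. At the basal level Ifi47 did not pass (edgeR adjusted p = 0.326). How many of all genes showed the same crossing was not counted, so no result about the family is drawn from these 3 genes.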

How the results depend on the processing

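Of 966 values of single genes under alternatives, 898 kept their direction and, where tested, their side of the threshold or, where not tested, stayed within their SE. Of the tested values 42 lost and 11 gained a call. Of those with no test 15 moved by their SE in the main fit or more, and 0 of all values changed sign. Depth limits 9930111J21Rik1 most, and with 2 libraries per group 1 library can end a call. The cause of the changes below was not tested. Counts past the edgeR threshold over all genes were as follows. For TNF-α averaged over knockdowns the count was 1038, with 1987 under no filter on low counts, 1904 with the replicate block and 513 to 1122 with a library left out. For GSTM1 KD averaged over states it was 6095, with 3608 to 6533 when a library was left out. At the basal level it was 1524, with 2494 by DESeq2, 3957 with no filter, 4712 with the replicate block, 2762 with all 8 libraries and 1 to 5256 with a library left out. After TNF-α it was 2360, with 4540 with no filter, 4302 with the replicate block and 0 to 5028 with a library left out. For TNF-α in control KD it was 403, with 738 by DESeq2, 1255 with no filter, 988 with the replicate block, 72 with only its 4 libraries and 180 to 313 with a library left out. For TNF-α in GSTM1 KD it was 406, with 629, 1050, 808, 691 and 74 to 444 under the same settings in turn. For the IRG genes, leaving out a library gave 2 to 6 of 9 averaged over states (5 with all), 0 to 7 of 7 after TNF-α (7 with all) and 1 to 6 of 7 for TNF-α in control KD (5 with all), where only its 4 libraries gave 3. Replicate numbers are shared by the groups. Deviations of same-numbered libraries from their group means correlated at 0.575 between the states of control KD and at 0.33 between those of GSTM1 KD. Between knockdowns they correlated at 0.165 to 0.284. The labels do not say that a number marks a shared litter or day, so the libraries were not treated as paired. Whether the states of a knockdown shared cultures was not tested. With the replicate block the IRG counts were 9, 5, 0, 7, 6 and 7 in the 6 comparisons, Igtp being the gene gained for TNF-α in control KD (edgeR adjusted p = 0.0277).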
